A study of Homo sapiens with 6 samples.

Results

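The replication-dependent histone genes, which encode the core histones H2A, H2B, H3 and H4 and the linker histone H1 that package newly made DNA, were examined in HT29 cells with and without siALDOA. HT29 is a human colorectal adenocarcinoma line with epithelial morphology. Cells received an siRNA against ALDOA (siALDOA), the glycolytic enzyme aldolase A, or a scrambled siRNA (siControl), and RNA was isolated 48 h later from 3 biological replicates of each. All 6 libraries come from this single line. Members were the rows whose symbol was H2AC, H2BC, H3C or H4C followed by digits, or H1-1 to H1-6, since no row carried an older symbol starting with HIST. This rule found 66 of the 28278 gene rows, made up of 6 H1, 16 H2A, 17 H2B, 13 H3 and 14 H4 genes. edgeR's filter on low counts left 31 of these 66 among the 15307 genes tested.

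Histone synthesis is tied to DNA replication. In S phase the coactivator NPAT switches on the histone gene clusters, and the transcripts are cut by the U7 small nuclear ribonucleoprotein just past a short stem-loop. Unlike other mRNAs, they end in this stem-loop and not in a poly(A) tail. The stem-loop binding protein SLBP binds there and directs processing, export and translation, and the mRNAs are destroyed when replication stops. In bulk RNA, a change in the share of cells in S phase and a change in histone mRNA per cell cannot be told apart.

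A stem-loop of 16 bases, with a loop of 4 bases, was found once in the transcript of each of the 66 genes in GENCODE release 44 on hg38. The stem had 6 base pairs in 64 genes and 5 in the other 2, H2AC11 and H2AC15. The most frequent core, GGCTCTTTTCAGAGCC, was carried by 38 genes of the classes H1, H2A, H2B and H3, and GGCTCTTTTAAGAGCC by 9 genes of the same classes, 5 of them H2B genes. The H4 genes had a core of their own with another base pair in the stem, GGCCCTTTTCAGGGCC in 9 genes and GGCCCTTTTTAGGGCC in 4. The remaining 6 genes each had a core that no other gene had. The following cores, in capitals with 5 bases on each side in lower case, are those of the called genes and of further genes of each class, H3C6 among them because its loop differs from the usual one.
H2AC18, chr1:149842223-149842238 (-): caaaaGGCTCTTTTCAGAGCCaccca
H2AC19, chr1:149851574-149851589 (+): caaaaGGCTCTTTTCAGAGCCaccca
H2BC12, chr6:27146366-27146381 (-): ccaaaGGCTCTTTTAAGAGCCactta
H2AC6, chr6:26124669-26124684 (+): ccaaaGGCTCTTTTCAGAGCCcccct
H1-2, chr6:26055744-26055759 (-): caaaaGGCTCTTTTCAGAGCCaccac
H3C14, chr1:149840692-149840707 (-): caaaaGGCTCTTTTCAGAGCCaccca
H3C6, chr6:26225596-26225611 (+): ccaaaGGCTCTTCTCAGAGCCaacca
H4C14, chr1:149833032-149833047 (+): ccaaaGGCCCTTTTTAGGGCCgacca
H2AC18, H2AC19 and H3C14 had the same 26-base sequence, and whether the sequence bears on the fold changes was not tested.

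The library method matters for RNAs without a poly(A) tail, and whether poly(A) RNA was selected or ribosomal RNA removed is not given in the sources used here. The libraries held between 27277538 and 33237914 counts on genes. The 37 rows of ribosomal RNA took 13.1%, 7.71% and 8.11% of the siALDOA counts against 17.4%, 15.3% and 8.15% of the siControl counts. The siControl library of replicate 3 was thus close to siALDOA replicates 2 and 3 in this share. The histone genes took 0.0282% ± 0.00202 of all counts with siALDOA and 0.0215% ± 0.00130 with siControl (SD, n = 3 each). ALDOA itself was at 289 ± 13.7 CPM (the count scaled to library size) with siALDOA and at 632 ± 38.2 CPM with siControl (SD, n = 3), lower in all 3 siALDOA libraries. Of 12 epithelial and colonic markers, 11 were tested and LGALS4 was listed at 0 in all libraries. Their summed level ran from 9486 to 9817 CPM with siALDOA and from 10050 to 10610 CPM with siControl. Of the 11 tested, 8 had a log2 fold change below 0 (median -0.10), and edgeR called 1 higher and 1 lower, limma-voom 1 and 3, and DESeq2 1 and 2, where edgeR called 4.36% of all genes higher and 5.29% lower. KRT19 rose (log2 fold change 0.38) and KRT18 fell (log2 fold change -0.28, edgeR adjusted p = 0.0152, 0.0512 to 0.0750 without siALDOA replicate 2 or 3 or siControl replicate 2 or 3, and 0.243 with library totals only). Markers of fibroblasts summed to 3.16 to 4.36 CPM with siALDOA and 3.05 to 4.46 CPM with siControl, with COL1A2 and PDGFRA listed at 0 and 0 of the 2 tested called or at an unadjusted p < 0.05 by edgeR, limma-voom or DESeq2. Those of blood cells summed to 16.6 to 18.2 CPM and 13.3 to 15.1 CPM, nearly all of it CD14, with CD3E and TYROBP listed at 0. CD14 rose by 0.32 on the log2 scale (adjusted p = 0.0485), a call lost when any library other than siALDOA replicate 1 was left out (adjusted p 0.0629 to 0.153), with limma-voom (0.0525) and with the ribosomal RNA share as covariate (0.146).

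The H2A genes H2AC18 and H2AC19, which share their reads, and the H2B gene H2BC12 rose with siALDOA. The H2BC12 call was lost when some single libraries were left out and with the ribosomal RNA share as covariate. The other tested genes of the 66 did not pass the test. Summed over the 66 genes, with no test of the sum, the level was 269, 291 and 264 CPM with siALDOA against 213, 236 and 213 CPM with siControl. Each siALDOA library lay above each siControl library, and the ratio of the group means, 275 ± 14.2 against 220 ± 13.001 CPM (SD, n = 3), was 1.25. With 1 row kept of each pair that shares its reads, the sums were 226 ± 10.3 and 187 ± 10.2 CPM (SD, n = 3) and the ratio was 1.21. The siControl library whose ribosomal RNA share was close to that of siALDOA replicates 2 and 3, replicate 3, had a sum of 213 CPM, the same as siControl replicate 1 with the highest share. Without H2BC12, H2AC18 and H2AC19, which held 54.2% of the sum, the groups still did not overlap, at 120 ± 7.10 and 107 ± 2.79 CPM (SD, n = 3), and the ratio was 1.12.

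**Figure D1:**
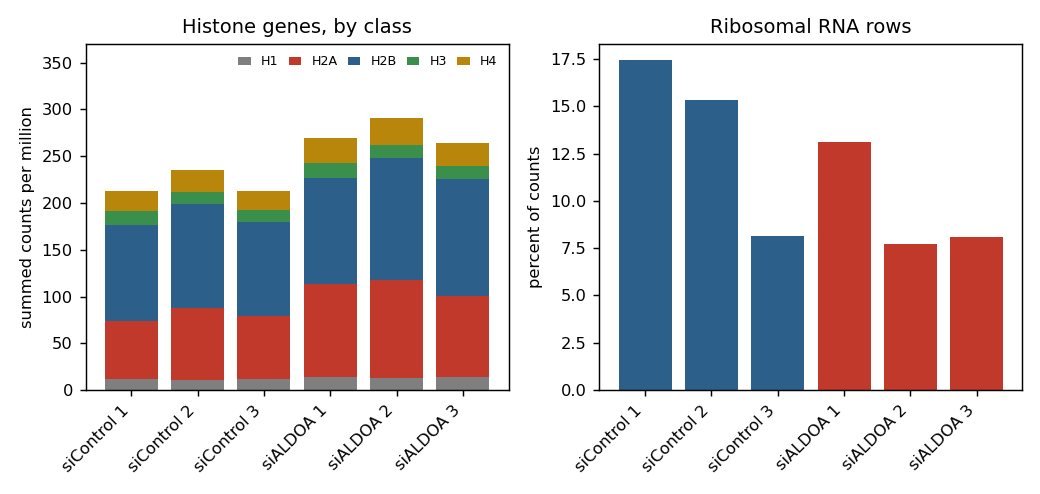
Left, CPM summed over the histone genes of each class (colours) in each library, stacked from 0; right, percent of each library's counts on ribosomal RNA rows (blue siControl, red siALDOA). The siALDOA sums of 264 to 291 CPM lie above the siControl sums of 213 to 236 CPM, while siControl replicate 3 has a ribosomal RNA share of 8.15%, close to the 7.71% and 8.11% of siALDOA replicates 2 and 3.

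By class, the H2A sum was 96.97 ± 9.32 CPM with siALDOA and 69.0 ± 6.95 CPM with siControl (SD, n = 3). H2B followed with 123 ± 8.87 and 105 ± 5.65 CPM, H4 with 26.8 ± 2.20 and 21.8 ± 1.97 CPM, and H1 with 13.4 ± 0.647 and 11.5 ± 0.182 CPM. None of these 4 sums overlapped between the groups, but H2A did without H2AC18 and H2AC19 (29.1 ± 1.95 and 26.4 ± 1.58 CPM), and so did H2B without H2BC12 (36.2 ± 3.13 and 33.8 ± 1.41 CPM). Most of the H1 sum was H1-2, with means of 12.9 and 10.8 CPM. Most of the H4 sum was H4C14 and H4C15, with means of 12.2 and 9.66 CPM each. H1-2, H4C14 and H4C15 did not pass the test. With 1 row per pair, the H2A sums were 63.1 ± 5.57 and 47.7 ± 4.25 CPM and those of H4 14.7 ± 1.21 and 12.2 ± 1.04 CPM. The H3 sum, 14.6 ± 1.93 against 13.4 ± 0.995 CPM (SD, n = 3), did overlap.

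Across the table, 3 of the 31 tested histone genes were called higher at an adjusted p < 0.05 by the quasi-likelihood F-test of edgeR, with p-values adjusted by Benjamini-Hochberg over the whole table. Of all tested genes, 4.36% were called higher. The 3 calls stand for 2 independent signals, because H2AC18 and H2AC19 share their reads. No histone gene was called lower by edgeR, limma-voom or DESeq2, where 5.29% of all genes were called lower by edgeR, and none had an unadjusted p < 0.05 in that direction. At an unadjusted p < 0.01, the threshold the study used, the same 3 were higher, beside 5.72% of all genes, and 0 were lower, beside 6.74%. At an unadjusted p < 0.05, 7 of the 31 were higher, beside 11.3% of all genes. In 8 of the 31 every siALDOA library was above every siControl library, beside 13.1% of all genes, and in none was the order opposite, beside 14.6%. Pairs that share their reads enter these counts with both rows. The fitted log2 fold change (siALDOA minus siControl) was above 0 in 23 of the 31, beside 50.3% of all genes, with a median of 0.32 and a range from -0.89 to 1.29. Over all tested genes the median was 0.0016. With 1 row per pair, 28 histone genes were tested, of which 2 were called higher, 5 were higher at an unadjusted p < 0.05, 6 did not overlap and 21 had a fold change above 0 (median 0.31).

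**Figure D2:**
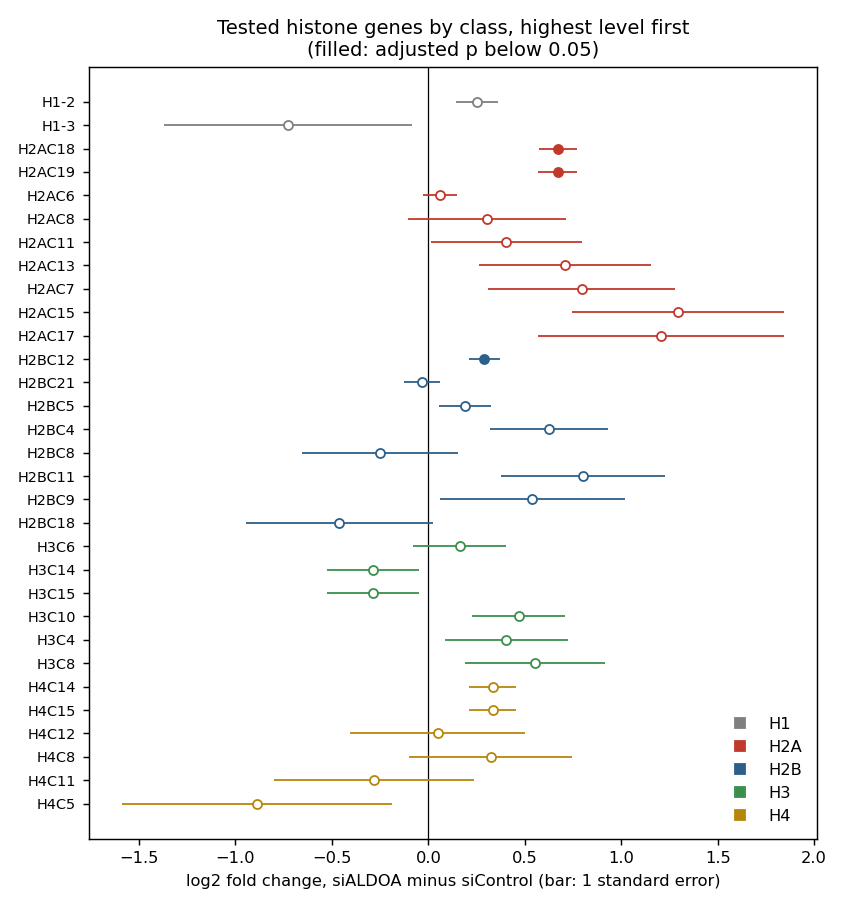
Log2 fold change of the 31 tested histone genes with 1 standard error, grouped by class and ordered by level within it; filled points have an adjusted p below 0.05. H2AC18, H2AC19 and H2BC12 are filled, 23 points lie above 0, and standard errors widen toward genes of low level.

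Standard errors were larger at lower levels. The 9 tested histone genes at 10 CPM or more on average had standard errors of 0.080 to 0.14 on the log2 scale. Another 9 genes between 1 and 10 CPM had standard errors of 0.24 to 0.41, and the 13 genes under 1 CPM had 0.39 to 0.70. Fold changes above 0 were found in 8 of 9, 6 of 9 and 9 of 13 genes of these bands, pairs that share their reads counted with both rows, and the median log2 fold changes were 0.29, 0.30 and 0.41.

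H2A is the core histone that pairs with H2B in the nucleosome, and all 9 tested H2A genes, 8 with 1 row per pair, had a fold change above 0. H2AC18 and H2AC19 lie in a duplicated block of the chromosome 1 cluster, on opposite strands at chr1:149842218-149842750 and chr1:149851061-149851594. Every one of the 384 windows of 150 bases, the read length, in the H2AC18 transcript also occurs in H2AC19, and their counts were equal in 5 of 6 libraries and differed by 2 in the other. They were therefore read as 1 measurement. H2AC18 was at 35.4, 36.8 and 29.6 CPM with siALDOA and at 18.8, 24.2 and 20.9 CPM with siControl. The lowest siALDOA library was above the highest siControl library. H2AC18 rose by 0.67 on the log2 scale (standard error 0.10, adjusted p = 1.37e-04), and between 0.59 and 0.77 in the alternative settings and left-out libraries, all past the threshold.

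H2AC6, an H2A gene of the chromosome 6 cluster with a unique sequence, had a similar level and did not pass the test. Its values were 22.3, 25.2 and 23.3 CPM with siALDOA and 21.9, 23.4 and 22.6 CPM with siControl. The groups overlapped, and the log2 fold change was 0.06 (standard error 0.087, adjusted p = 0.730). H2AC15, chosen after its values were seen, had the highest fold change of the 31 but few reads. The siALDOA libraries held 11, 17 and 22 reads of it against 9, 10 and 3 in siControl libraries, without overlap (log2 fold change 1.29, standard error 0.55, adjusted p = 0.152). The other 5 tested H2A genes, H2AC7, H2AC8, H2AC11, H2AC13 and H2AC17, had log2 fold changes of 0.30 to 1.21, and in each the groups overlapped.

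H2BC12, on chromosome 6 at chr6:27146361-27146855, was the histone gene with the most reads and held 31.9% of the summed histone CPM. It was at 75.7, 91.7 and 93.0 CPM with siALDOA and at 67.3, 78.6 and 67.1 CPM with siControl. Replicates 2 and 3 of siALDOA were above every siControl library, and siALDOA replicate 1 was below siControl replicate 2. H2BC12 rose by 0.29 on the log2 scale (standard error 0.080, adjusted p = 0.0244). The call was lost when siALDOA replicate 2 (adjusted p = 0.119), siALDOA replicate 3 (0.117), siControl replicate 1 (0.0923) or siControl replicate 3 (0.135) was left out. It was also lost with the ribosomal RNA share as a covariate (adjusted p = 0.0749), while the log2 fold change stayed between 0.24 and 0.38 in all alternatives.

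The next H2B genes by level did not pass the test. H2BC21 was at 17.3, 18.7 and 16.8 CPM with siALDOA and at 18.5, 16.9 and 18.6 CPM with siControl. These values overlapped fully (log2 fold change -0.03, standard error 0.095, adjusted p = 0.878). H2BC5 was at 14.9, 12.7 and 9.996 CPM with siALDOA and at 12.3, 10.2 and 10.5 CPM with siControl, also overlapping (log2 fold change 0.19, standard error 0.14, adjusted p = 0.436, and 0.05 without siALDOA replicate 1 or 0.33 without siALDOA replicate 3). H2BC4, chosen after its values were seen, had counts of 40, 76 and 50 against 36, 41 and 40 in siControl libraries (log2 fold change 0.63, standard error 0.31, adjusted p = 0.221), and 1.44 CPM, its lowest siALDOA value, was above 1.34 CPM, its highest siControl value. The remaining 4 tested H2B genes, H2BC8, H2BC9, H2BC11 and H2BC18, ranged from -0.46 to 0.80.

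H3 and H4 form the central tetramer of the nucleosome, and no gene of either class was called. H3C14 and H3C15, which lie beside H2AC18 and H2AC19 in the duplicated block, had identical counts. H3C14 was at 2.34, 2.63 and 1.94 CPM with siALDOA and at 3.24, 2.29 and 2.88 CPM with siControl. The groups overlapped, and the log2 fold change was -0.29 (standard error 0.24, adjusted p = 0.515), the lowest among tested histone genes with at least 1 CPM. It was -0.17 without siControl replicate 1, -0.18 without siALDOA replicate 3 and between -0.41 and -0.27 without each of the others. H3C6 was at 4.92, 2.26 and 3.52 CPM with siALDOA and at 3.24, 2.98 and 3.31 CPM with siControl. Here the siALDOA libraries lay on both sides of the siControl libraries (log2 fold change 0.16, standard error 0.24, adjusted p = 0.741), and without siALDOA replicate 1 the sign turned to -0.14. H3C10, chosen after its values were seen, was at 3.13, 2.50 and 2.92 CPM with siALDOA and at 2.08, 2.39 and 1.70 CPM with siControl, without overlap (log2 fold change 0.47, standard error 0.24, adjusted p = 0.247).

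H4C14 and H4C15 are the third gene pair of the duplicated block and also had identical counts. H4C14 was at 12.3, 13.3 and 10.9 CPM with siALDOA and at 9.62, 10.6 and 8.74 CPM with siControl. The groups did not overlap, but the log2 fold change of 0.33 (standard error 0.12) did not pass the adjusted threshold (adjusted p = 0.0914) except with scaling by library totals only (adjusted p = 0.0483). H4C12 was counted 9, 21 and 24 times with siALDOA and 23, 18 and 16 times with siControl. Its log2 fold change, 0.05 with a standard error of 0.45 (adjusted p = 0.965), changed sign in several alternatives. Of the 238 windows of 150 bases in the H4C12 transcript, 213 also occur in H4C11. Both rows were kept in the counts with 1 row per pair.

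Within the duplicated block, the 3 gene types were set against each other as log2 ratios in each library, a comparison chosen after their values were seen. The ratio of H2AC18 to H3C14 was 3.92, 3.81 and 3.94 with siALDOA and 2.54, 3.40 and 2.86 with siControl, a difference of 0.96. For H2AC18 over H4C14 the difference was 0.34, from 1.48 ± 0.045 to 1.14 ± 0.15 (SD, n = 3), and for H4C14 over H3C14 it was 0.62. These ratios are a description, and the third follows from the other two.

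H1 is the linker histone that binds where DNA enters and leaves the nucleosome. H1-2 was the only one of the 6 H1 genes above 1 CPM, at 13.4, 12.3 and 13.1 CPM with siALDOA and at 10.6, 10.6 and 11.4 CPM with siControl. Every siALDOA library was higher, and the log2 fold change of 0.25 (standard error 0.11) had an adjusted p = 0.161. H1-3 was counted 2, 4 and 11 times with siALDOA and 12, 12 and 7 times with siControl (log2 fold change -0.73, standard error 0.64, adjusted p = 0.547, and between -1.63 and -0.35 when a library was left out). H1-4, counted 8, 7 and 9 times with siALDOA and 2, 5 and 4 times with siControl, was not tested. H1-1 and the testis gene H1-6 had 1 and 5 counts over all 6 libraries. H1-5 had 10, 3 and 0 counts with siControl and 0 in each siALDOA library.

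**Figure D3:**
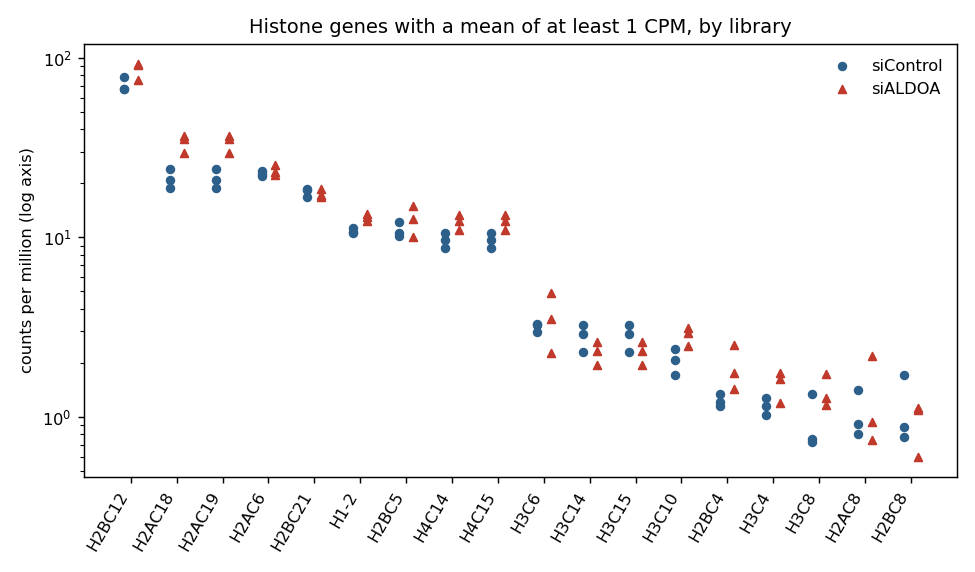
CPM in each library (log axis) of the 18 histone genes that average 1 CPM or more, from highest to lowest; blue circles are siControl and red triangles siALDOA libraries. H2BC12 stands highest at 67.1 to 93.0 CPM, and H2AC18 and H2AC19 show separate groups, with values equal in 5 of 6 libraries.

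The 35 untested genes held few reads. In all, 37 of the 66 histone genes had under 60 counts over the 6 libraries, and 6 genes, H2AC1, H2BC1, H4C1, H4C6, H4C7 and H4C13, had 0 counts in each, which allows up to 3 counts per library. H2AC1 and H2BC1 are the testis-specific pair of the cluster.

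Per kilobase of reference transcript, H2BC12 led with a mean over the 6 libraries of 159 CPM per kb. H2AC18 and H2AC19 had 51.8 and 51.7 CPM per kb, each row holding the reads of both copies, and H2AC6, a single copy, had 44.6. In the siControl libraries H2AC18 (35.3, 45.4 and 39.2 CPM per kb) and H2AC6 (42.2, 45.1 and 43.5 CPM per kb) did not differ beyond their spread, whereas in the siALDOA libraries the H2AC18 row (66.4, 69.0 and 55.6) lay above H2AC6 (43.1, 48.6 and 44.8). H4C14 (again with the reads of 2 copies), H2BC5 and H1-2 had 27.6, 24.2 and 16.3 CPM per kb. H2BC21, whose reference transcript alone runs on past the stem-loop, by 1729 bases, had 7.995 CPM per kb over the whole transcript. It would have 35.9 over the 495 bases up to the end of the stem-loop if all its reads lay there. Its place in this order thus depends on the length used and on where its reads lie. The highest H3 gene, H3C6, reached 6.996 CPM per kb.

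Some histone genes have annotated transcripts that run past the stem-loop, which can end in a poly(A) tail. GENCODE or RefSeq (GRCh38.p14) listed such a transcript, reaching over 50 bases past the stem-loop, for 15 of the 66 genes, among them H2BC12, H2AC6, H2BC21, H2BC5, H3C6, H4C14 and H4C15. These 15 genes held 65.9% of the summed histone CPM, with a median of 5.05 CPM per kb and a maximum of 159. The other 51 genes held 34.1%, with a median of 0.273 CPM per kb and a maximum of 51.8, which was H2AC18. Fold changes were above 0 in 10 of 12 tested genes with a longer transcript (median log2 fold change 0.31, 1 called) and in 13 of 19 without one (median 0.40, 2 called), where 4.36% of all genes were called higher. With 1 row per pair these were 9 of 11 and 12 of 17, with 1 called in each. H2AC18, H2AC19 and H1-2 thus had levels among the highest without an annotated transcript past the stem-loop. Reads that lie past the stem-loop cannot be told from the others in counts per gene.

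**Figure D4:**
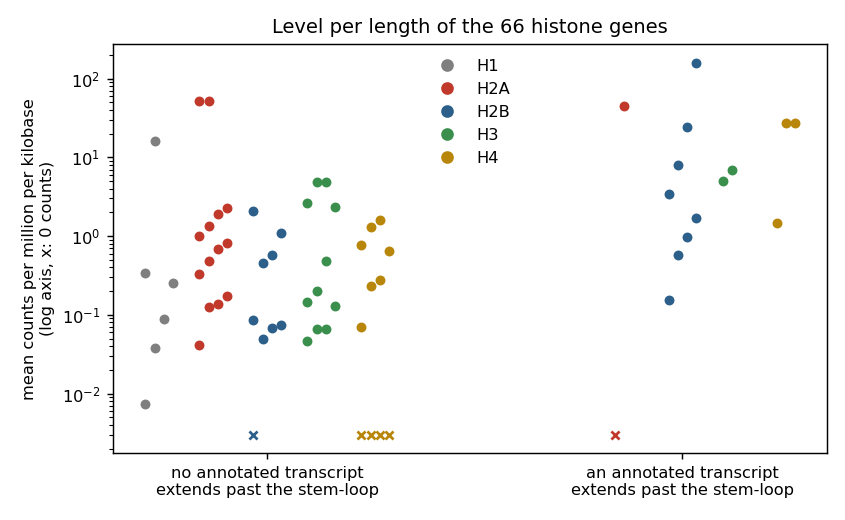
Mean CPM per kilobase over all 6 libraries (log axis) of each of the 66 histone genes, split by whether an annotated transcript reaches over 50 bases past the stem-loop; colours give the class and crosses mark genes with 0 counts. The 15 genes on the right have a median of 5.05, the 51 on the left one of 0.273, with H2AC18, H2AC19 and H1-2 standing above the rest on the left.

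The genes lie in 2 clusters, 55 on chromosome 6 and 11 on chromosome 1. Chromosome 6 held 59.2% of the summed CPM and chromosome 1 held 40.8%, or 71.0% and 28.99% with 1 row kept of each pair of the duplicated block. Of the tested genes, 19 of 23 on chromosome 6 (median log2 fold change 0.32, 1 called) and 4 of 8 on chromosome 1 (median 0.15, 2 called) had a fold change above 0. With 1 row per pair, chromosome 1 had 2 of 5 above 0, 1 called and a median of -0.03. Of all genes, 50.3% were above 0 and 4.36% were called higher. Many H2A and H2B genes share a promoter region head to head, and 11 such pairs had start sites 194 to 251 bases apart. Partners were within 2-fold of each other per kb in 4 pairs, such as H2BC8 (2.101 CPM per kb) and H2AC8 (2.25), and over 5-fold apart in 4 others, with H2AC1 and H2BC1 both at 0. Among those far apart, H2BC12 had 159 CPM per kb and its partner H2AC12 had 0.138, counted 4, 0 and 3 times with siALDOA and 4, 0 and 0 times with siControl. H2AC6 had 44.6 CPM per kb beside 3.42 for H2BC4, and H2BC21 had 7.995 (at most 35.9 up to the stem-loop) beside 0.478 for H2AC20.

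Promoter motifs differed between the classes. RefSeq promoter sequences of 300 bases, 250 before and 50 after the start, were matched for 61 of the 66 genes and searched on both strands. The octamer ATTTGCAT, the site of the factor OCT1 in H2B promoters, was found in 14 of 17 H2B and 11 of 15 H2A promoters (8 of these 11 are the site of an H2B promoter that faces them, and 1 reads on the strand of the H2A gene), in none of the 6 H1, 11 H3 and 12 H4 promoters, and in 1.8% of 27305 promoters of all genes. TATAAA was found in 67.2% of the histone promoters and 12.3% of all. CCAAT was found in every matched H1, H2A, H2B and H3 promoter, in 25.0% of the H4 promoters and in 35.4% of all. The H1 box AAACACA was found in all 6 H1 promoters and 5.8% of all. The promoter of H2BC12 held an octamer (capitals, 10 bases on each side) 41 bases before its start site, and that of H2BC21, which did not pass the test, held one 38 bases before its start site, both read on the strand of the gene.
H2BC12, chr6:27146897-27146904 (-): tcttcaccttATTTGCATgagaggtcct
H2BC21, chr1:149886721-149886728 (-): cggagccctaATTTGCATaaggtggtta
No octamer was found in the windows of H2AC18 and H2AC19.

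In a chosen list of genes that act in making histone mRNA, no tested gene passed the test. Of 20 genes for transcription and 3' end processing of histone mRNA, 0 were called in either direction by edgeR, limma-voom or DESeq2, beside 9.66% of all genes in both directions by edgeR. At an unadjusted p < 0.05 edgeR had 0 higher and 1 lower, SLBP, and limma-voom and DESeq2 had 0 in either direction. The log2 fold changes of the list lay between -0.15 and 0.10 around a median of 0.013. SLBP was at 74.2, 69.8 and 70.7 CPM with siALDOA and at 71.8, 87.7 and 78.6 CPM with siControl, overlapping (log2 fold change -0.15, standard error 0.071, adjusted p = 0.208, and -0.07 without siControl replicate 2). NPAT was at 45.4, 46.7 and 42.4 CPM with siALDOA and at 40.8, 42.5 and 42.1 CPM with siControl, also overlapping (log2 fold change 0.10, standard error 0.069, adjusted p = 0.410). The U7 RNA itself, RNU7-1, was under the filter. In the list for histone mRNA decay 1 of 10 genes was called, the exonuclease XRN1, beside 9.66% of all genes in both directions. XRN1 was higher by 0.21 on the log2 scale (adjusted p = 0.049997). That call was lost when any of the 6 libraries was left out (adjusted p 0.0593 to 0.245), with limma-voom (0.0547), with no filter on low counts (0.0638) and without the ribosomal RNA rows (0.0536).

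Most replacement histones are made from polyadenylated mRNAs and not only in S phase. Of 10 tested, 2 were called higher and 0 lower, beside 4.36% and 5.29% of all genes. At an unadjusted p < 0.05 edgeR also had 2 higher and 0 lower, and limma-voom and DESeq2 called 2 higher and 0 lower. H2AJ, an H2A variant gene outside the clusters, was at 99.4, 82.0 and 86.9 CPM with siALDOA and at 61.2, 66.9 and 64.5 CPM with siControl, without overlap. It rose by 0.48 on the log2 scale (standard error 0.072, adjusted p = 1.41e-04), in every alternative setting. H3-3A, which encodes H3.3, was at 451, 402 and 398 CPM with siALDOA and at 350, 361 and 349 CPM with siControl, and it rose by 0.24 (standard error 0.059, adjusted p = 0.0115), a call lost without siControl replicate 3 (adjusted p = 0.0786). H2AX and H2AZ1, at log2 fold changes of -0.01 and 0.09, did not pass the test.

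Histone chaperones carry new histones to DNA. Of 18 tested, 1 was called higher and 1 lower, beside 9.66% of all genes in both directions. ASF1B, which hands H3 and H4 to the assembly machinery, rose by 0.27 on the log2 scale (standard error 0.077, adjusted p = 0.0302), a call lost without siALDOA replicate 2 or 3 or siControl replicate 2 or 3 (adjusted p 0.100 to 0.158) and with the ribosomal RNA share as covariate (0.0609). SUPT16H, a subunit of the chaperone FACT, fell by 0.35 on the log2 scale (log2 fold change -0.35, standard error 0.066, adjusted p = 0.00127). It was at 77.7, 82.9 and 71.0 CPM with siALDOA and at 97.6, 102.5 and 96.1 CPM with siControl. The other 16 chaperone genes did not pass the edgeR test, and the list's median was 0.053. limma-voom called 1 higher and 1 lower, and DESeq2 2 higher and 1 lower.

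In the list for DNA replication and S phase entry, 19 of 25 tested genes had a log2 fold change above 0 (median 0.10, range -0.14 to 0.25), beside 50.3% of all genes. Of these genes 2 were called higher and 0 lower by edgeR, limma-voom and DESeq2 alike, beside 4.36% and 5.29% of all genes by edgeR. At an unadjusted p < 0.05 edgeR had 6 higher and 0 lower, beside 11.3% and 12.3% of all genes. GINS1, a subunit of the replicative helicase, rose by 0.25 (adjusted p = 0.0291), and RRM2, which makes deoxynucleotides, rose by 0.19 (adjusted p = 0.0447). The call of GINS1 was lost when any library other than siALDOA replicate 2 was left out (adjusted p 0.0533 to 0.165), and that of RRM2 when any other than siALDOA replicate 1 was (adjusted p 0.0750 to 0.157), with no filter on low counts (0.0562) and with the ribosomal RNA share as covariate (0.0913). PCNA, the sliding clamp, was at 135, 132 and 131 CPM with siALDOA and at 114, 142 and 110 CPM with siControl, overlapping (log2 fold change 0.12, adjusted p = 0.355); it was chosen after its values were seen.

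Other RNAs without a poly(A) tail were not called higher by edgeR, limma-voom or DESeq2. Only 6 of 20 were tested, with 0 higher at an unadjusted p < 0.05, and edgeR called 2 lower, beside 5.29% of all genes, limma-voom 1 and DESeq2 0. RN7SL1, an RNA of the signal recognition particle, was at 69.7, 58.3 and 38.4 CPM with siALDOA and at 141, 120 and 46.2 CPM with siControl. RN7SL2, its second copy, was at 94.2, 84.7 and 55.1 CPM with siALDOA and at 231, 196 and 73.0 CPM with siControl. In both, the siControl library with the low ribosomal RNA share, replicate 3, lay within the siALDOA range. Their log2 fold changes were -0.88 (standard error 0.25, adjusted p = 0.0272) and -1.09 (standard error 0.25, adjusted p = 0.00707). With the ribosomal RNA share as a covariate these became -0.14 and -0.33 (adjusted p = 0.554 and 0.117). The call of RN7SL1 was also lost without siALDOA replicate 2 or 3 or siControl replicate 1 or 2 (adjusted p 0.0707 to 0.153), with log2 fold changes from -1.24 (without siControl replicate 3) to -0.59 (without siControl replicate 1) over all left-out libraries, and with limma-voom (0.100), that of RN7SL2 without siControl replicate 2 (0.0539), and both with DESeq2 (0.287 and 0.166).

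**Figure D5:**
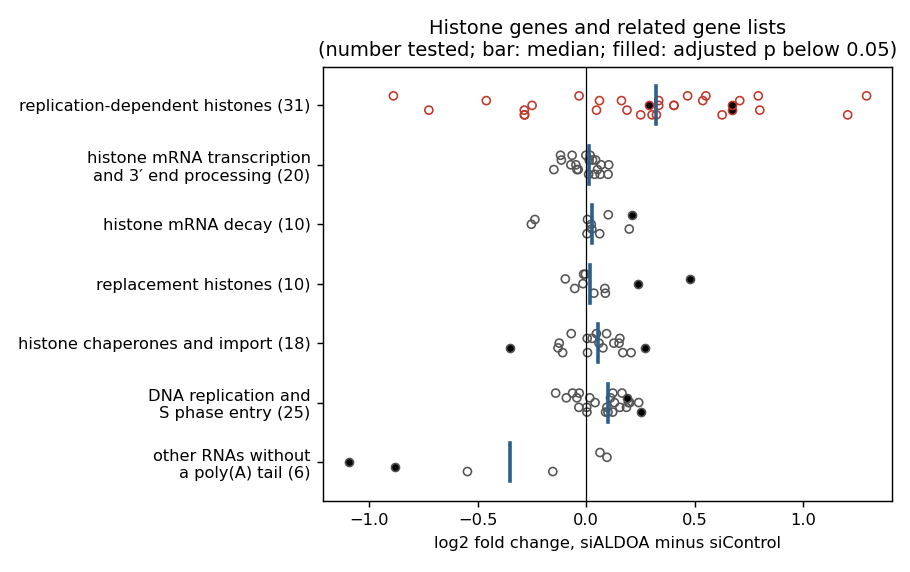
Log2 fold change of the 31 tested replication-dependent histone genes (red outlines) and of the tested genes of 6 related lists (grey outlines), with the median of each as a blue bar; filled points have an adjusted p below 0.05. The histone genes have a median of 0.32, the processing genes one of 0.013, and RN7SL1 and RN7SL2 lie at -0.88 and -1.09.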

How the data were processed

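RNA-Seq counts of HT29 cells with siALDOA (n = 3) and siControl (n = 3) at 48 h were analysed. The authors used TopHat2 to place 150 bp paired-end reads on hg38 and gfold for counting, and deposited whole-number counts per gene symbol without normalization. Annotation, strandedness and how reads with more than 1 match were treated are not given in the sources used here. Near-identical histone rows carried the same counts, so sums over the genes count some reads again, and a sum with 1 row per pair was also made. The protein identity that had been planned was not computed.

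Counts were tested in R 4.3.3 with edgeR 4.0.16 (filterByExpr, TMM, quasi-likelihood F-test, no covariate) over 15307 genes with Benjamini-Hochberg adjustment. CPM used the TMM factors. Standard errors were taken as the fold change (log2) over the root of F. Levels per kb used the GENCODE release 44 reference transcript. The script was tested on simulated data. At 27277538 to 33237914 counts per library, low genes rest on few counts. The replicates are labelled as biological. p-values set the difference between the groups against the spread between these libraries.

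Replicate numbers correlated at 0.111, 0.0675 and 0.0813 between same-numbered libraries after removal of group means, so they were not taken to pair the samples. Alternatives were limma-voom (limma 3.58.1), DESeq2 1.42.0, other scalings and filters, a replicate block, the ribosomal RNA share as covariate, ribosomal RNA rows left out and each library left out in turn. Sums without the leading genes, 1 row per pair and siControl replicate 3 alone were added after seeing the data.

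Members and gene lists were chosen with earlier results of these data known. Named were all members with an adjusted p < 0.05, the 3 highest of each class by CPM, the 2 highest and 2 lowest fold changes at 1 CPM or more, ALDOA, SLBP, NPAT and the smallest p-values among the called genes of the lists. Figures were drawn with matplotlib 3.10.9.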

Additional observations from a re-analysis of the deposited data

How the results depend on the processing

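H2AC18 and H2AC19 stayed past the threshold in all 18 alternatives, and H2BC12 in 12 of 18. With library totals only, 5 histone genes were called higher (also H4C14 and H4C15), their median log2 fold change was 0.39, H2BC21 turned to 0.040, 279 genes of all were called lower, and the median of all genes moved to 0.075. Leaving out 1 library in turn gave 2 to 3 histone genes called higher, medians of 0.24 to 0.39, 359 to 644 genes of all called higher and 471 to 790 lower, and 2 to 7 (higher) and 1 to 4 (lower) calls in the other lists. With siControl replicate 3 as the only control, assumed to vary like the other libraries, H2BC12 had an adjusted p = 0.123. Without H2BC12, H2AC18 and H2AC19 the log2 ratio of the summed CPM was 0.17 (0.32 with them). H4C12 turned to -0.028 with limma-voom, -0.0046 with the ribosomal RNA covariate, and -0.045, -0.23 and -0.090 without siALDOA replicate 2, siALDOA replicate 3 and siControl replicate 3, and H3C6 to -0.14 without siALDOA replicate 1. When a library was left out, H4C12 ran from -0.23 to 0.35 and H3C6 from -0.14 to 0.41. The causes were not tested. The replicate block called the same 3 histone genes (H2AC18 at 0.67, H2BC12 at 0.29, adjusted p = 0.00152), 0 lower, and changed no call among the histone genes; 987 genes of all were then higher and 1175 lower. Few counts limit the 13 tested genes under 1 CPM.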

Other observations

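Further histone rows lie outside the rule by their symbols. H2AW, an H2A gene whose symbol the rule does not match, was at 13.8, 13.3 and 13.2 CPM with siALDOA and at 10.6, 10.3 and 9.35 CPM with siControl, without overlap. It was called higher (log2 fold change 0.42, standard error 0.11, adjusted p = 0.0184 with edgeR), beyond the histone genes counted above. The pseudogene H2BC20P, at 7.31 ± 0.700 and 6.27 ± 0.947 CPM (SD, n = 3), had a log2 fold change of 0.22 (adjusted p = 0.418). The row of H3P6, an H3 pseudogene, was higher by 0.26 on the log2 scale (adjusted p = 0.0142). Its counts were 8445, 7653 and 7267 with siALDOA and 6878, 7182 and 7345 with siControl. Those of H3-3A were 12546, 12087 and 11319 with siALDOA and 10919, 11024 and 11489 with siControl. Whether the H3P6 row shares reads with H3-3A was not tested, so it was not read as a further rising gene. The low H4 gene H4-16 (0.627 ± 0.415 and 0.302 ± 0.197 CPM) and the H2B gene H2BU1 (0.395 ± 0.301 and 0.438 ± 0.197 CPM) did not pass the test. These rows were chosen after their values were seen.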
